A study of Mus musculus with 20 samples.

Results

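Expression of 8 AP-1 transcription factor genes, Fos, Fosb, Fosl2, Jun, Junb, Jund, Atf3 and Batf, was measured by 3′ single-cell RNA-sequencing (scRNA-seq) in 20 libraries from 13 mice, each made from live cells without selection. The genes were listed by name, and make up 8 of the 31053 genes in the deposited tables. Eµ-PRMT5 mice carry a human PRMT5 cDNA (PRMT5 is an arginine methyltransferase) and Eµ-TCL1 mice a human TCL1 cDNA (TCL1 is an oncogene used to model chronic lymphocytic leukemia, CLL). Both are driven in immature and mature B cells by an immunoglobulin heavy chain promoter and the Eµ enhancer. Eµ-PRMT5/TCL1 mice are a cross with both transgenes. The groups were Eµ-PRMT5 spleen (n = 5), Eµ-TCL1 spleen (n = 4), Eµ-PRMT5/TCL1 spleen (n = 4), Eµ-TCL1 lymph node (n = 3) and Eµ-PRMT5/TCL1 lymph node (n = 4), and 7 mice gave both tissues. The strain of every sample is labelled C57BL/6N, tissues were taken when mice met criteria for euthanasia, no age is given, and no group is untreated wild type. Eµ-PRMT5 spleen 3 carries the identifier of a transgenic founder named in the methods.

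AP-1 is a dimer of basic leucine zipper (bZIP) proteins, made of a Fos protein (Fos, Fosb, Fosl2) with a Jun protein (Jun, Junb, Jund) or of a pair of Jun proteins, which binds DNA and switches target genes on or off. Atf3 and Batf are bZIP partners of Jun proteins, and Batf has no activation domain of its own. Fos, Fosb, Jun, Junb and Atf3 are immediate early genes: their mRNA rises within minutes of antigen receptor, mitogen or stress signals through the mitogen-activated protein (MAP) kinases, and falls soon after. The same genes are known to rise while tissue is being cut up and cells are brought into suspension, in whatever cell type is present. The question addressed was therefore whether differences between genotypes lay in the B cells, where the transgenes are driven, or also in the T cells and myeloid cells of the same suspension.

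B, T, myeloid and plasma cells were called from raw marker counts (unique molecular identifiers, UMIs, each standing for 1 captured mRNA). Of 84231 cells kept, 35833 were B (278 to 5093 per library), 30653 T (49 to 4737), 6390 myeloid (7 to 1285) and 3076 plasma cells (1 to 656), and 8279 had no class. Counts were summed per library and class, and levels are given as CPM, counts per 1000000 UMIs of that sum. The B cell markers Ms4a1, Cd79a and Cd79b summed to 3277 to 5979 CPM in B cells of 19 libraries and 8.21 to 97.8 CPM in T cells of all 20. T cell markers (Cd3d, Cd3e, Trac and others) reached 2863 to 6705 CPM in T cells and 8.18 to 220.3 CPM in B cells. Eµ-PRMT5 spleen 4 stood apart, with these B cell markers at 1421 CPM in its B cells and 49 T cells in all, and results that turn on it are given with and without it. Lymph node and spleen libraries have separate runs of library numbers, so tissue and library order cannot be told apart, and Eµ-TCL1 spleens came mostly from males (3 of 4, against 1 of 5 and 1 of 4 in the other spleen groups), with sex inferred from expression of Xist and Y-linked genes, since no label gives it. RNA set free from broken cells, which enters every droplet, was read from barcodes with 1 to 99 UMIs, and in spleens it held Fos at 88.7 to 749 CPM (median 162) and Jun at 101 to 399 CPM (median 148).

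Promoters of the members were taken from RefSeq (GRCm38.p6), which held all 8. Shown are the 250 bases before the start of Fos, Fosb and Junb, immediate early genes whose levels moved together in the data below, and of Jun, the 1 member that passed the test between genotypes. Sequences run 5′ to 3′ on the gene's strand, and capitals mark TGACG or CGTCA, the short form of the cyclic AMP response element (CRE), which the stretch of Jun does not hold.

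Fos (chr12:85473640-85473889, plus strand): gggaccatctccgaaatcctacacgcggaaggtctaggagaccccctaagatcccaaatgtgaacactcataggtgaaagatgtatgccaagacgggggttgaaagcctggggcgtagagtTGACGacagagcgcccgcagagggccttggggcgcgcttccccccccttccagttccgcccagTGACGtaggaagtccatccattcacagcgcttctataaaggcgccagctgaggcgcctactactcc

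Fosb (chr7:19310046-19310295, minus strand): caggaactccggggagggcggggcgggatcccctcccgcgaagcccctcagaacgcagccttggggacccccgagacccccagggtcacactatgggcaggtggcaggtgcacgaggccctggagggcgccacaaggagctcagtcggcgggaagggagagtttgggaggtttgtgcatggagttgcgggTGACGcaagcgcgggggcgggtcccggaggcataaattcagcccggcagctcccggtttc

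Junb (chr8:84978749-84978998, minus strand): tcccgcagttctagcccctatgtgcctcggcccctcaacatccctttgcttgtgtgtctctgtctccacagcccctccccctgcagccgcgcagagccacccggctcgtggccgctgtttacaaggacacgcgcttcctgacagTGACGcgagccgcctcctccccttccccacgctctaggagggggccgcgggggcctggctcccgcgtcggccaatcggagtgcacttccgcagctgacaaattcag

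Jun (chr4:95052223-95052472, minus strand): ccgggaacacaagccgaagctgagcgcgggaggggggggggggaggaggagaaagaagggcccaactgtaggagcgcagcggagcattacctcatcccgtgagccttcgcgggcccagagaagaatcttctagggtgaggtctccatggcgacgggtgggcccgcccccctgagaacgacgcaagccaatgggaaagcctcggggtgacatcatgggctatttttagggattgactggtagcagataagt

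In the window from 250 bases before to 50 bases after the start, searched on both strands, a short CRE was found in 5 of the 8 members (Fos, Fosb, Junb, Atf3 and Batf), against 20.81% of all 32851 promoters of that length. Counted from the start, short CREs began at −129 and −66 in Fos, −60 in Fosb and −106 in Junb. The full CRE (TGACG followed at once by TCA, so that it holds the short form) and the AP-1 site itself (TGACTCA or TGAGTCA) were found in 0 of 8, against 1.79% and 5.202% of all promoters, and the serum response element core known as the CArG box in 0 of 8, against 1.629%. A GC box (GGGCGG or CCGCCC) was found in 6 of 8 members, Jun among them, against 35.66%, and TATAAA in Fos (at −33) and Junb (at 1, the first base of the RefSeq start), against 8.319%. These are exact matches of letters in a short window. Forms that differ by 1 base were not searched, and the stretch of Jun holds such a form of the full CRE, TGACATCA. Sites more than 250 bases before the start could not be found, so a 0 does not show that a gene lacks the site. The RefSeq start is the gene's start in the GENCODE annotation for Fos and Jun. It lies 30 bases upstream of it for Junb and 1210 for Jund, and 6 downstream for Fosb, 51 for Batf, 671 for Fosl2 and 34706 for Atf3, so the windows of these 6 may not be the promoters in use here.

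Fos (ENSMUSG00000021250, chr12:85473890-85477273, plus strand), the founding member of the family, and Fosb (ENSMUSG00000003545, chr7:19302696-19310051, minus strand), its close relative, varied widely between libraries of the same cell class. Positions here and below are on GRCm38. In B cells, Fos was counted at 1156, 110.5, 208, 98.5 and 951 CPM in Eµ-PRMT5 spleens 1 to 5. It was at 68.4, 145, 18.1 and 74.5 CPM in Eµ-TCL1 spleens 1 to 4, and at 71.7, 29.1, 84.1 and 726 CPM in Eµ-PRMT5/TCL1 spleens 1 to 4. Fos in T cells of these spleens was at 209, 65.0, 94.5, 67.99 and 201 CPM, then 33.7, 25.3, 12.01 and 8.53, then 173, 6.58, 32.8 and 177, in the same order. Eµ-PRMT5 spleens 1 and 5 and Eµ-PRMT5/TCL1 spleen 4 were the highest in B cells, and the B cell ranges of Eµ-PRMT5 and Eµ-TCL1 spleens overlapped, while in T cells every Eµ-PRMT5 spleen was above every Eµ-TCL1 spleen, as in 1.3% of all genes. Fos in B cells of lymph nodes was at 50.1, 78.7 and 343 CPM in Eµ-TCL1 mice and at 36.5, 259.7, 703 and 52.5 CPM in Eµ-PRMT5/TCL1 mice. T cells held Fos at 9.05, 12.8 and 116 CPM and at 7.74, 67.8, 114 and 28.5 CPM. The highest node in B cells of either genotype was also the highest of its genotype in T cells. 

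In B cells, Fosb was counted at 190.4, 57.4, 77.8, 13.1 and 139 CPM in Eµ-PRMT5 spleens 1 to 5. It was at 18.4, 25.1, 5.33 and 7.83 CPM in Eµ-TCL1 spleens 1 to 4, and at 24.7, 6.54, 23.5 and 74.6 CPM in Eµ-PRMT5/TCL1 spleens 1 to 4. Fosb in T cells of these spleens was at 54.6, 14.4, 17.7, 21.6 and 74.2 CPM, then 7.59, 7.22, 3.92 and 1.42, then 17.6, 4.70, 6.92 and 63.6, in the same order. The order of libraries was close to that of Fos, with Eµ-PRMT5 spleens 1 and 5 and Eµ-PRMT5/TCL1 spleen 4 highest in T cells. Fosb in B cells of lymph nodes was at 27.1, 25.5 and 55.8 CPM in Eµ-TCL1 mice and at 6.15, 77.7, 135 and 20.5 CPM in Eµ-PRMT5/TCL1 mice. T cells held Fosb at 2.90, 1.69 and 21.5 CPM and at 0, 12.6, 35.2 and 14.4 CPM. The value of 0 came from 67 T cells, in which a count of 0 allows up to 7.74 CPM (3 counts, counting error only).

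Fosl2 (ENSMUSG00000029135, chr5:32135801-32157842, plus strand), a Fos protein that lasts longer after a signal than Fos itself, had the opposite distribution between B and T cells. In B cells, Fosl2 was counted at 58.02, 16.6, 63.6, 5.02 and 24.99 CPM in Eµ-PRMT5 spleens 1 to 5. It was at 7.77, 5.38, 13.6 and 8.47 CPM in Eµ-TCL1 spleens 1 to 4, and at 3.58, 12.49, 7.602 and 15.8 CPM in Eµ-PRMT5/TCL1 spleens 1 to 4. Fosl2 in T cells of these spleens was at 210, 99.9, 141, 64.7 and 282 CPM, then 72.2, 107, 95.4 and 51.8, then 121, 45.4, 42.6 and 180.3, in the same order. Every spleen was higher in T than in B cells, and Eµ-PRMT5 spleens 1 and 3 were the highest in B cells. Fosl2 in B cells of lymph nodes was at 20.9, 16.8 and 31.9 CPM in Eµ-TCL1 mice and at 1.62, 6.87, 35.3 and 6.10 CPM in Eµ-PRMT5/TCL1 mice. T cells held Fosl2 at 15.4, 48.8 and 126 CPM and at 12.9, 154, 150.3 and 90.2 CPM. Eµ-TCL1 lymph node 1 was the only library in which the B cell level was above the T cell level.

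Jun (ENSMUSG00000052684, chr4:95049034-95052222, minus strand), the founding member of its family and the main partner of Fos, was higher in B than in T cells of every library. In B cells, Jun was counted at 314, 262, 200.4, 87.2 and 262 CPM in Eµ-PRMT5 spleens 1 to 5. It was at 112, 113, 56.6 and 53.5 CPM in Eµ-TCL1 spleens 1 to 4, and at 83.03, 157, 82.7 and 298 CPM in Eµ-PRMT5/TCL1 spleens 1 to 4. Jun in T cells of these spleens was at 106, 70.7, 78.3, 81.2 and 55.7 CPM, then 15.9, 15.8, 25.9 and 13.4, then 76.7, 29.6, 36.5 and 84.3, in the same order. In T cells the lowest Eµ-PRMT5 spleen was above the highest Eµ-TCL1 spleen, and so was the lowest Eµ-PRMT5/TCL1 spleen, as in 1.3% and 2.13% of all genes. In B cells 4 of 5 Eµ-PRMT5 spleens were above every Eµ-TCL1 spleen, and Eµ-PRMT5 spleen 4 was not. Jun in B cells of lymph nodes was at 125, 126 and 113 CPM in Eµ-TCL1 mice and at 86.1, 249.3, 181 and 144 CPM in Eµ-PRMT5/TCL1 mice. T cells held Jun at 45.1, 44.1 and 56.0 CPM and at 25.8, 40.2, 80.9 and 54.3 CPM.

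Junb (ENSMUSG00000052837, chr8:84974484-84978718, minus strand) is a Jun protein that activates transcription more weakly than Jun. In B cells, Junb was counted at 2324, 624, 855, 544 and 1125 CPM in Eµ-PRMT5 spleens 1 to 5. It was at 269.7, 616, 510.3 and 416 CPM in Eµ-TCL1 spleens 1 to 4, and at 464, 426, 386 and 1283 CPM in Eµ-PRMT5/TCL1 spleens 1 to 4. Junb in T cells of these spleens was at 1280, 469, 598, 711 and 909 CPM, then 455, 403, 342 and 219, then 543, 192, 294 and 1843, in the same order. It was highest in Eµ-PRMT5 spleen 1 in B cells and in Eµ-PRMT5/TCL1 spleen 4 in T cells. Junb in B cells of lymph nodes was at 313, 519 and 565 CPM in Eµ-TCL1 mice and at 181, 638, 1235 and 289.5 CPM in Eµ-PRMT5/TCL1 mice. T cells held Junb at 205, 288 and 526 CPM and at 157, 582, 578 and 353 CPM. Its highest node, Eµ-PRMT5/TCL1 lymph node 3, was also the highest for Fos in B cells.

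Jund (ENSMUSG00000071076, chr8:70698949-70700616, plus strand) is the Jun protein that resting cells already hold. In B cells, Jund was counted at 499, 1145, 659.9, 559.5 and 812 CPM in Eµ-PRMT5 spleens 1 to 5. It was at 383, 725, 1228 and 834 CPM in Eµ-TCL1 spleens 1 to 4, and at 474, 434, 353 and 1014 CPM in Eµ-PRMT5/TCL1 spleens 1 to 4. Jund in T cells of these spleens was at 189, 274, 242, 303 and 389 CPM, then 128, 138, 226 and 125, then 126, 99.01, 117 and 468, in the same order. Its B cell ranges in the 3 spleen groups overlapped throughout. Jund in B cells of lymph nodes was at 518, 540.4 and 1183 CPM in Eµ-TCL1 mice and at 481, 727, 1335 and 748 CPM in Eµ-PRMT5/TCL1 mice. T cells held Jund at 136, 174 and 243 CPM and at 98.0, 131, 363 and 239 CPM.

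Atf3 (ENSMUSG00000026628, chr1:191170296-191218039, minus strand), a stress-induced bZIP factor that often represses its targets, was lower in T than in B cells of every library. In B cells, Atf3 was counted at 106, 370.4, 257, 25.2 and 718 CPM in Eµ-PRMT5 spleens 1 to 5. It was at 117, 249.3, 21.1 and 128 CPM in Eµ-TCL1 spleens 1 to 4, and at 82.6, 117, 156 and 319.5 CPM in Eµ-PRMT5/TCL1 spleens 1 to 4. Atf3 in T cells of these spleens was at 56.7, 34.1, 24.7, 4.97 and 13.3 CPM, then 3.07, 18.04, 2.85 and 3.41, then 6.21, 2.19, 12 and 26.9, in the same order. Eµ-PRMT5 spleen 5 was the highest and Eµ-TCL1 spleen 3 and Eµ-PRMT5 spleen 4 the lowest in B cells, and the T cell level was below the B cell level in each. Atf3 in B cells of lymph nodes was at 93.6, 79.3 and 586 CPM in Eµ-TCL1 mice and at 20.8, 189, 494 and 61.3 CPM in Eµ-PRMT5/TCL1 mice. T cells held Atf3 at 2.95, 7.17 and 19.9 CPM and at 2.58, 9.47, 24.9 and 7.42 CPM.

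Batf (ENSMUSG00000034266, chr12:85686669-85709087, plus strand) is needed by lymphocytes for class switching and for several T helper fates. Its level in B cells lay between 13.8 and 64.8 CPM over the 20 libraries. In B cells, Batf was counted at 30.01, 42.7, 43.1, 64.8 and 56.0 CPM in Eµ-PRMT5 spleens 1 to 5. It was at 31.1, 23.5, 35.6 and 31.8 CPM in Eµ-TCL1 spleens 1 to 4, and at 43.6, 33.7, 22.4 and 38.5 CPM in Eµ-PRMT5/TCL1 spleens 1 to 4. Batf in T cells of these spleens was at 79.5, 42.2, 52.8, 172 and 56.8 CPM, then 193, 29.1, 92.7 and 32.4, then 78.7, 62.5, 124 and 154, in the same order. The highest T cell values, in Eµ-TCL1 spleen 1 and Eµ-PRMT5 spleen 4, came from different genotypes. Batf in B cells of lymph nodes was at 43.4, 23.9 and 31.2 CPM in Eµ-TCL1 mice and at 13.8, 64.7, 31.2 and 33.4 CPM in Eµ-PRMT5/TCL1 mice. T cells held Batf at 35.6, 19.8 and 20.2 CPM and at 95.5, 53.6, 39.2 and 69.2 CPM. In T cells of nodes all 4 Eµ-PRMT5/TCL1 values were above all 3 Eµ-TCL1 values, as in 3.15% of all genes.

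**Figure D1:**
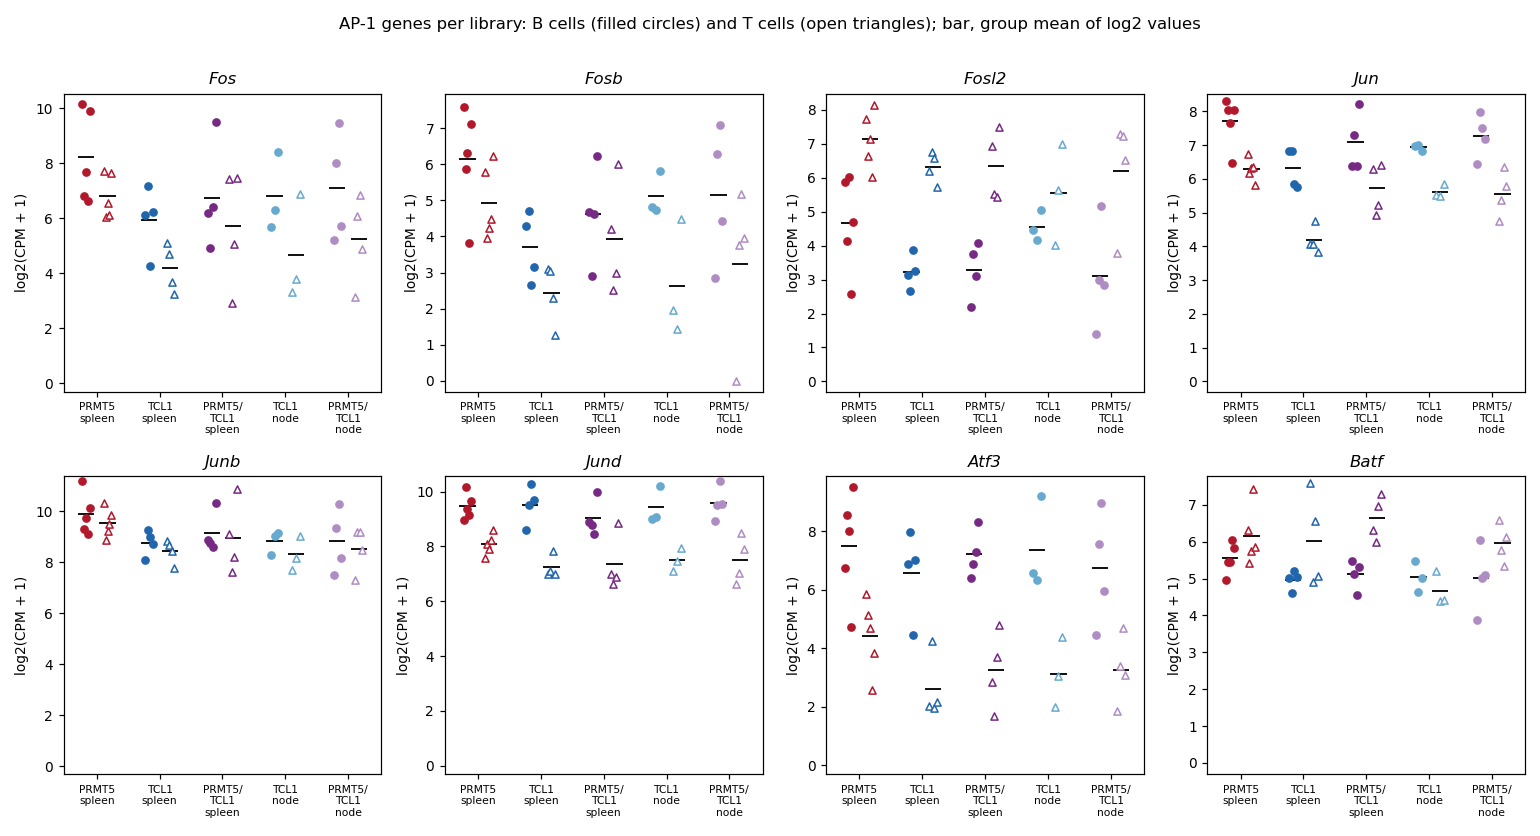
Level of each of the 8 AP-1 genes, as log2(CPM + 1) on the y axis, in each library, with libraries grouped along the x axis by genotype and tissue. Filled circles are B cells, open triangles T cells and bars the means of the log2 values. In T cells the Eµ-PRMT5 spleens lie wholly above the Eµ-TCL1 spleens for Fos, Fosb, Jun and Junb, while in B cells the 2 groups overlap for every gene.

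Levels differed between cell classes of the same library. B cells of the 13 spleens held more Atf3 (log2 fold change 3.90 ± 0.38 (SE), adjusted p = 3.94e-07), Jund (1.78 ± 0.16, adjusted p = 1.68e-07), Jun (1.69 ± 0.21, adjusted p = 6.32e-06), Fos (1.49 ± 0.28, adjusted p = 0.000341) and Fosb (1.203 ± 0.21, adjusted p = 0.000147) than T cells. They held less Fosl2 (−2.92 ± 0.27, adjusted p = 2.27e-07) and Batf (−1.03 ± 0.22, adjusted p = 0.000946). Junb was at 0.33 ± 0.14 and missed the threshold (adjusted p = 0.0581), though it passed by DESeq2 (adjusted p = 0.0444) and by edgeR without Eµ-PRMT5 spleen 4 (log2 fold change 0.37, adjusted p = 0.0453). Tests here and below are edgeR's quasi-likelihood test on summed counts, adjusted by Benjamini-Hochberg over all genes tested, with a call at an adjusted p below 0.05. Between 2 cell classes many genes differ, so the 7 members called of 8 stand beside 58.3% of the 10430 genes tested, of which 30.5% were higher and 27.8% lower in B cells. The median log2 difference was 1.34 over the members and 0.0085 over all genes.

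In the 7 lymph nodes the same 5 genes were higher in B cells, with log2 fold changes of 4.05 ± 0.25 for Atf3, 2.06 ± 0.38 for Fosb, 1.94 ± 0.13 for Jund, 1.92 ± 0.23 for Fos and 1.46 ± 0.17 for Jun (largest adjusted p = 0.00132, for Fosb). Fosl2 was again lower (log2 fold change −2.42 ± 0.55, adjusted p = 0.00476). Neither Junb (0.32 ± 0.18, adjusted p = 0.158) nor Batf (−0.39 ± 0.32, adjusted p = 0.332) passed. Of the 10692 genes tested 50.6% were called, 24.9% higher and 25.8% lower. Library by library, the B cell level was above the T cell level in 20 of 20 libraries for Jun, Jund and Atf3, in 19 of 20 for Fos and Fosb and in 15 of 20 for Junb, while for Batf this held in 5 and for Fosl2 in 1.

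**Figure D2:**
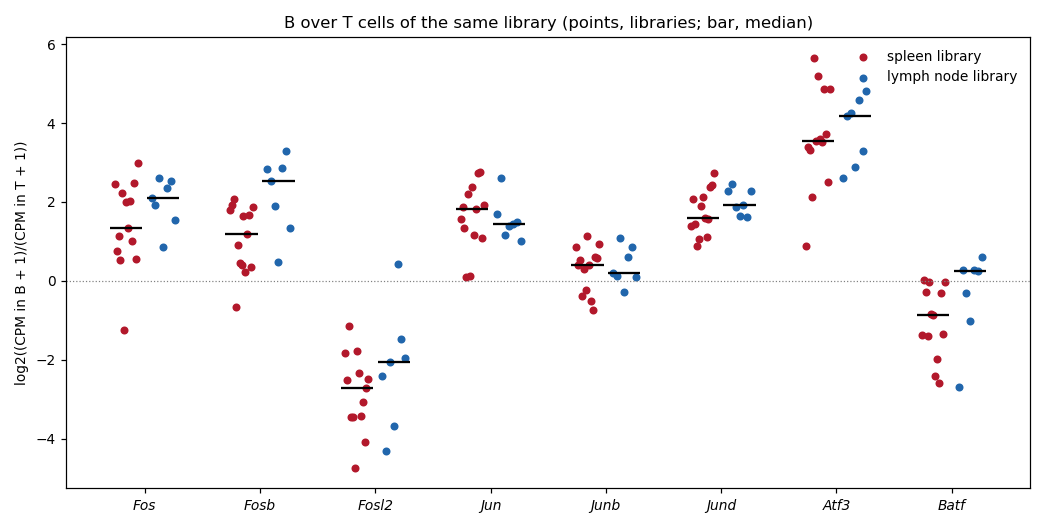
Log2 ratio of the B cell to the T cell level in each library, log2((CPM in B + 1)/(CPM in T + 1)), for each AP-1 gene, with 13 spleens in red, 7 lymph nodes in blue and bars at the medians. Jun, Jund and Atf3 lie above 0 in all 20 libraries, and Fosl2 below 0 in 19.

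Myeloid cells had another pattern. Against T cells of the same 13 spleens, they held more Atf3 (log2 fold change 3.00 ± 0.39, adjusted p = 3.36e-06), Fos (2.12 ± 0.38, adjusted p = 0.00011) and Jun (1.68 ± 0.27, adjusted p = 3.33e-05). They held less Batf (−1.90 ± 0.17, adjusted p = 3.91e-08), Fosl2 (−0.81 ± 0.19, adjusted p = 0.000966) and Jund (−0.69 ± 0.11, adjusted p = 3.81e-05). Fosb (−0.76 ± 0.34, adjusted p = 0.0545) and Junb (0.10 ± 0.17, adjusted p = 0.59) did not pass, while without Eµ-PRMT5 spleen 4 Fosb did (−0.85, adjusted p = 0.0363). The background was 71.8% of genes called, 33.8% higher and 38% lower. Jund therefore differed from T cells in opposite directions in B and in myeloid cells.

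Plasma cells, the antibody-secreting form of B cells, were compared with B cells in the 10 spleens with at least 20 of them. Jun was higher in plasma cells and Junb and Batf were lower, with and without TMM, the scaling of library totals that edgeR applies, while the direction of Fos, Fosb, Jund and Atf3 depended on it. Immunoglobulin genes took 10.9% to 60.4% of plasma cell UMIs in these spleens and 0.793% to 3.06% of B cell UMIs. With TMM, edgeR called higher Jun (log2 fold change 2.13 ± 0.20, adjusted p = 7.41e-07), Fos (0.89 ± 0.19, adjusted p = 0.00146), Fosb (0.62 ± 0.20, adjusted p = 0.0186) and Jund (0.53 ± 0.12, adjusted p = 0.00175), and lower Batf (−1.49 ± 0.16, adjusted p = 3e-06) and Junb (−0.80 ± 0.16, adjusted p = 0.0007). Atf3 (0.71 ± 0.35, adjusted p = 0.104) and Fosl2 (−0.26 ± 0.24, adjusted p = 0.388) were not called. Of all genes 48.1% were called, 22.2% higher and 25.9% lower. Without TMM, 640 genes were called higher and 7103 lower, and the median log2 difference of all genes was −0.97 in place of −0.085. Jun was then at 1.23 (adjusted p = 2.19e-05), Junb at −1.71 (adjusted p = 2.04e-06) and Batf at −2.35 (adjusted p = 1.96e-08), while Fos was at −0.048 (adjusted p = 0.816), Fosb at −0.39 (adjusted p = 0.134), Atf3 at −0.19 (adjusted p = 0.597) and Jund, called lower, at −0.37 (adjusted p = 0.0403). On plain CPM, Jun was higher in plasma than in B cells of 9 of 10 spleens, Fos in 5, Fosb in 3 and Jund in 1. With TMM the calls for Fos, Fosb and Jund did not hold under every other alternative either: Fos missed the threshold under a stricter cell gate (adjusted p = 0.236) and Jund with each cell thinned to 1000 UMIs (adjusted p = 0.514). Jun had its highest plasma levels, 1168, 1129 and 946 CPM, in Eµ-PRMT5 spleen 5, Eµ-PRMT5/TCL1 spleen 4 and Eµ-PRMT5 spleen 1, libraries that were also high in Fos.

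Medians of the 4 classes are over 13 spleens, except for plasma cells (10 spleens). Fos had median levels of 65.0 CPM in T, 98.5 in B, 107 in plasma and 158 in myeloid cells of spleens. Jun had median levels of 55.7 CPM in T, 113 in B, 197 in plasma and 113 in myeloid cells of spleens, and its B cell median over the 10 spleens with plasma cells was 156 CPM. Jund had median levels of 189 CPM in T, 659.9 in B, 537 in plasma and 115 in myeloid cells of spleens (B cells of those 10 spleens, 736). Junb had median levels of 469 CPM in T, 544 in B, 287 in plasma and 419 in myeloid cells of spleens. The other pairs of neighbours in these orders, such as myeloid against B cells, were not tested, and ranges overlapped between most classes: Fos ran from 6.58 to 209 CPM in T, 18.1 to 1156 in B and 66.3 to 1248 in myeloid cells of spleens. The share of cells with a UMI was near that of the other class for some members and far from it for others. With every cell thinned to 1000 UMIs, Fos was seen in a median of 5.41% of B cells and 4.08% of T cells of spleens (unthinned, 16.6% and 8.83%), and Junb in 38.5% and 31.1% (unthinned, 87.3% and 70.7%). Atf3 was seen in 8.67% of B and 1.07% of T cells (unthinned, 25.1% and 3.82%), Fosl2 in 1.39% and 8.82% (unthinned, 8.32% and 33.4%), and Jund in 43.9% and 17.7% (unthinned, 93.6% and 53.9%). The summed T cell level was above the level in free RNA of the same library in 1 of 13 spleens for Fos and for Jund, in 0 of 13 for Fosb, Jun and Atf3, in 6 for Junb, and in 10 for Fosl2 and for Batf. In B cells it was above it in 13 of 13 for Jund, 10 for Junb, 9 for Atf3, 5 for Jun, 4 for Fosb, 2 for Fos, 3 for Batf and 0 for Fosl2. How much of the T cell level free RNA could supply was read from S100a8 and S100a9, neutrophil genes that the calling of T cells did not use: T cells of spleens held them at 0.0826% to 0.625% of their level in free RNA. At that share, free RNA would bring 0.111 to 1.26 CPM of Jun into T cells, up to 5.92% of the level found there. The same estimate reached 5.41% for Fos, 2.82% for Fosb, 0.715% for Junb and 20.6% for Atf3. These are estimates from 2 genes and not bounds, since T cells were called by holding few UMIs of other classes, myeloid markers among them. In Eµ-TCL1 spleen 1 the B cell markers were at 97.8 CPM in T and 5545 CPM in B cells. The part of free RNA in the T cell levels was not tested.

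Between Eµ-PRMT5 and Eµ-TCL1 spleens, Jun in T cells was the only member that passed the test. It was 4.36-fold higher in T cells of Eµ-PRMT5 spleens (log2 fold change 2.12 ± 0.29 (SE), adjusted p = 0.0311), with all 5 libraries above all 4. Free RNA held Jun at 109.5 to 263 CPM in the Eµ-PRMT5 and 101 to 151 CPM in the Eµ-TCL1 spleens. At the shares estimated above it would bring 0.231 to 1.05 CPM into T cells of the Eµ-PRMT5 and 0.111 to 0.942 CPM into those of the Eµ-TCL1 spleens. The part of free RNA in the Jun result was not tested. In T cells Fosb (2.94 ± 0.76, adjusted p = 0.693), Fos (2.73 ± 0.77, adjusted p = 0.693), Atf3 (2.05 ± 0.74, adjusted p = 0.693), Junb (1.19 ± 0.50, adjusted p = 0.756), Jund (0.89 ± 0.39, adjusted p = 0.765) and Fosl2 (1.02 ± 0.46, adjusted p = 0.77) all had positive log2 fold changes in edgeR at unadjusted p below 0.05, none past the adjusted threshold, and Batf was at −0.11 ± 0.54. In all, 3 of 10776 genes were called (0.0278%) and 693 had an unadjusted p below 0.05. By DESeq2, 33 genes (0.308%) and 3 members (Jun, Fos and Fosb) were called. 4 members did not overlap between the groups in T cells (Fos, Fosb, Jun and Junb), against 1.3% of genes in which every Eµ-PRMT5 library was above every Eµ-TCL1 library. The Jun call did not hold with sex as a covariate (log2 fold change 2.22, adjusted p = 0.0663), without TMM (log2 fold change 2.13, adjusted p = 0.0666), with cells of at least 500 UMIs (2.25, adjusted p = 0.23), or when any of 8 of the 13 libraries was left out, Eµ-PRMT5 spleen 4 among them (adjusted p = 0.0691). Without 1 library its log2 fold change stayed between 2.01 and 2.42.

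In B cells of the same spleens no member passed, although 5 members had an unadjusted p below 0.05 and the estimates for Fos and Fosb were close to those in T cells. Fos was at a log2 fold change of 2.61 ± 1.00 (edgeR adjusted p = 0.199), Fosb at 2.601 ± 0.74 (adjusted p = 0.123), Fosl2 at 1.73 ± 0.59 (adjusted p = 0.165), Jun at 1.27 ± 0.39 (adjusted p = 0.137) and Junb at 1.14 ± 0.43 (adjusted p = 0.194). Jund (−0.23 ± 0.34), Atf3 (1.07 ± 0.77) and Batf (0.59 ± 0.30) had larger p. Free RNA held Fos at 140 to 576 CPM in the Eµ-PRMT5 and 115 to 162 CPM in the Eµ-TCL1 spleens, and its part in the B cell result was not tested. The edgeR fit called 2 of 11842 genes (0.0169%), and 2148 genes had an unadjusted p below 0.05. By DESeq2 706 were called (6.06%), with Fos, Fosb, Fosl2 and Jun among them. Groups did not overlap in 0 of the 8 members, against 2.8% of genes. For Fosb, Fosl2, Jun and Junb the overlap came from Eµ-PRMT5 spleen 4 alone, and the share of all genes without that library was not counted. Without Eµ-PRMT5 spleen 4, the library with few B cell markers, edgeR called 6.7% of genes, and 3 members passed: Fosb (log2 fold change 2.88, adjusted p = 0.0362), Fosl2 (2.01, adjusted p = 0.0385) and Jun (1.45, adjusted p = 0.0416). The median log2 fold change was 1.21 over the members and 0.0093 over all genes in B cells, and 1.62 and −0.012 in T cells.

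In myeloid cells of these spleens no member was called by edgeR. Batf was at 0.0048 ± 0.29, and the other 7 had log2 fold changes between 0.34 and 4.34, where 49.6% of all genes were above 0. Atf3 (2.62 ± 0.56, adjusted p = 1), Fosb (4.34 ± 1.10, adjusted p = 1), Jun (1.61 ± 0.51, adjusted p = 1) and Fos (1.68 ± 0.63, adjusted p = 1) had an unadjusted p below 0.05 in edgeR, where 0 of 9842 genes were called (0%) and 306 had such a p. DESeq2 called 1 gene of all (0.0102%), and it was Atf3 (log2 fold change 2.70, adjusted p = 0.00205). Atf3 in myeloid cells was at 77.3, 222, 50.9, 189 and 613 CPM in the Eµ-PRMT5 spleens and 32.4, 30.8, 28.1 and 47.6 CPM in the Eµ-TCL1 spleens. The highest of these, in Eµ-PRMT5 spleen 5, came from 46 cells. The myeloid and T classes each pool several cell types, whose mix in each library was not tested. As counted, Fosb and Atf3 did not overlap between the groups, against 0.467% of genes with every Eµ-PRMT5 library above every Eµ-TCL1 library. Fosb was at 9.86, 23.7, 6.51, 27.4 and 153 CPM in myeloid cells of the Eµ-PRMT5 spleens. In those of the Eµ-TCL1 spleens it was at 2.22, 0, 0.633 and 2.93 CPM, from 26, 0, 5 and 8 UMIs. The 0 came from 51 cells, so for Fosb too few counts were held to exclude an overlap.

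The difference between genotypes was then compared between B and T cells of the same libraries, as an interaction of cell class and genotype with the library as a block. No member passed this test. The difference of log2 fold changes, B minus T, was −0.45 (95% interval −1.94 to 1.03, adjusted p = 0.865) for Fos, −0.16 (95% interval −1.25 to 0.93, adjusted p = 0.957) for Fosb, −0.13 (95% interval −0.92 to 0.65, adjusted p = 0.947) for Junb, −0.87 (95% interval −1.89 to 0.15, adjusted p = 0.56) for Jun and 0.59 (95% interval −0.78 to 1.96, adjusted p = 0.781) for Fosl2. For Atf3 it was −1.15 (95% interval −3.01 to 0.73, adjusted p = 0.674) and for Batf 0.34 (95% interval −0.78 to 1.47, adjusted p = 0.862). The intervals hold 0 for these 7 members, and differences of the sizes within them could not be told from 0. Jund had the smallest p, with −1.05 (95% interval −1.66 to −0.43, adjusted p = 0.326), and a call by DESeq2 (adjusted p = 0.0347). Its estimate was −0.23 in B cells and 0.89 in T cells. In this test edgeR called 1 of 12027 genes (0.00831%), 1206 passed before adjustment, and 87 were called by DESeq2 (0.753%).

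**Figure D3:**
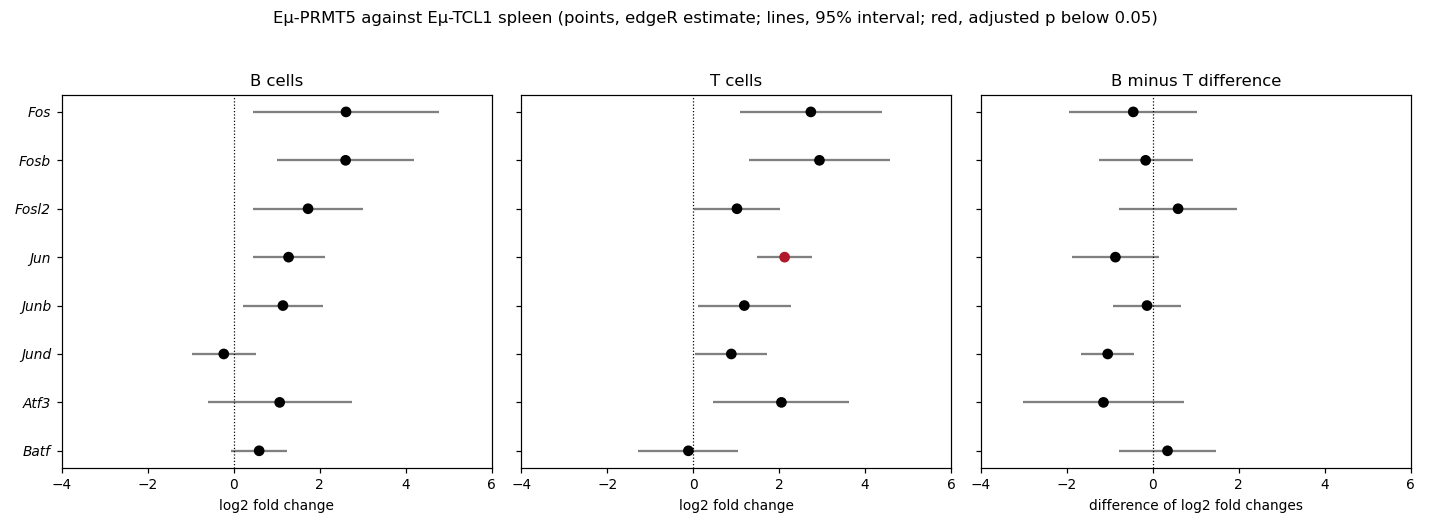
Eµ-PRMT5 against Eµ-TCL1 spleens, with the edgeR log2 fold change on the x axis for each AP-1 gene in B cells, in T cells, and as the difference of the 2 (B minus T). Lines are 95% intervals over 13 spleen libraries, and red marks an adjusted p below 0.05. Jun in T cells (2.12) is the only red point, and the B minus T intervals hold 0 for every gene except Jund.

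A second test used the log2 ratio of B to T levels of each library, compared between groups by an exact two-sided permutation test. In 32 tests (8 members, 4 contrasts) none had an adjusted p below 0.05, and the lowest adjusted p was 0.847. The smallest raw p was for Jund between Eµ-PRMT5 spleens (mean log2 ratio 1.37 ± 0.45, SD, n = 5) and Eµ-TCL1 spleens (2.28 ± 0.49, n = 4; exact permutation p = 0.0317). With 5 against 4 libraries the smallest p possible is 0.0159, with 4 against 4 it is 0.0286, and with 4 against 3 lymph nodes, where p cannot reach 0.05, it is 0.0571. After adjustment over 32 tests a single member at the smallest p could not have passed either, so the absence of calls in this test says nothing about the members.

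Adding the PRMT5 transgene to Eµ-TCL1 gave no member past the test by edgeR in spleen. In T cells, Jun (1.47 ± 0.30, adjusted p = 0.767), Fos (2.03 ± 0.77, adjusted p = 0.767) and Fosb (1.88 ± 0.77, adjusted p = 0.767) had an unadjusted p below 0.05 in edgeR, and Jun passed by DESeq2 (adjusted p = 0.0391), which called 0.0187% of genes. Here edgeR called 0% of 10776 genes, with 691 at an unadjusted p below 0.05. In B cells the same genes were at 0.71 ± 0.40 (Jun), 1.27 ± 0.99 (Fos) and 0.98 ± 0.72 (Fosb), with 0 members at an unadjusted p below 0.05 or called by DESeq2, and edgeR called 1 of 11842 genes (0.00844%). In myeloid cells 0% of 9842 genes were called, 155 passed 0.05 before adjustment, 0 were called by DESeq2, and the largest member estimate was Fosb (2.03 ± 1.13, edgeR adjusted p = 0.999). The B minus T difference was −0.77 (95% interval −1.85 to 0.31, adjusted p = 0.882) for Jun, −0.63 (95% interval −2.24 to 0.98, adjusted p = 0.95) for Fos and −0.58 (95% interval −1.23 to 0.068, adjusted p = 0.882) for Jund, and 2 of 12027 genes were called (0.0166%). This comparison shares its Eµ-TCL1 libraries with the one above.

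Against Eµ-PRMT5 spleens, no member passed in the Eµ-PRMT5/TCL1 spleens. Estimates were above 0 for 0 of 8 members in B cells and 1 of 8 in T cells, against 46.4% and 48.7% of all genes. In B cells Fosl2 (−1.72 ± 0.59, adjusted p = 0.466) and Fosb (−1.62 ± 0.70, adjusted p = 0.541) had an unadjusted p below 0.05 in edgeR, in T cells Jun (−0.66 ± 0.28, adjusted p = 1) did, and in myeloid cells Fosl2 (−0.72 ± 0.22), Atf3 (−1.67 ± 0.53) and Fosb (−2.31 ± 0.95) did. In B, T and myeloid cells and in the B minus T test, edgeR called 0% of genes, 1041, 472, 384 and 880 genes passed 0.05 before adjustment, and 135, 9, 0 and 11 genes were called by DESeq2, with no member among them. The Eµ-PRMT5/TCL1 group was uneven: spleen 4 had Fos at 726 CPM in B cells, where the other 3 lay between 29.1 and 84.1 CPM.

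In lymph nodes, Batf in T cells had the smallest p of the members between Eµ-PRMT5/TCL1 and Eµ-TCL1 mice. It had a log2 fold change of 1.37 ± 0.28, which missed the threshold by edgeR (adjusted p = 0.142) and passed it by DESeq2 (adjusted p = 0.00315), where 1.33% of genes were called. The 4 Eµ-PRMT5/TCL1 nodes lay between 39.2 and 95.5 CPM and the 3 Eµ-TCL1 nodes between 19.8 and 35.6 CPM. The other members had no unadjusted p below 0.05 in T cells, and Fos was at 0.52 ± 0.97 there and at 0.79 ± 1.10 in B cells. The B minus T difference was −2.38 (95% interval −3.996 to −0.76, adjusted p = 0.504) for Fosl2 and −1.26 (95% interval −2.40 to −0.13, adjusted p = 0.595) for Batf, both at an unadjusted p below 0.05. No member passed in B cells, T cells or the B minus T test by edgeR, which called 0% of genes in each, with 733, 1436 and 917 genes past 0.05 before adjustment and 62, 138 and 51 called by DESeq2. Eµ-PRMT5/TCL1 lymph node 1, the lowest node for Fos in both classes, held 67 T cells. By sex inferred from expression, that node and Eµ-TCL1 lymph nodes 2 and 3 came from males and the other nodes from females. Sex and genotype were thus partly mixed in nodes too.

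Across libraries, the levels of Fos, Fosb and Junb in B cells went with those in T cells over spleens, by both Pearson's r and Spearman's rho, and over lymph nodes Fos and Jund did. Over the 13 spleens, with log2(CPM + 1) in each class, Fosb had the highest correlation (r = 0.85, rho = 0.80, permutation p = 0.0005 and 0.00172, adjusted 0.00688 and 0.0155), followed by Fos (r = 0.79, rho = 0.76, permutation p = 0.00086 and 0.0042, adjusted 0.00688 and 0.0224) and Junb (r = 0.79, rho = 0.80, permutation p = 0.00198 and 0.00194, adjusted 0.0106 and 0.0155). Without the 2 spleens farthest from the T cell median r was 0.80, 0.80 and 0.61. Over deviations from the group means it was 0.75, 0.70 and 0.70, values within genotypes that were not tested. Jund (r = 0.63, adjusted permutation p = 0.0415, within groups 0.73) and Jun (r = 0.61, adjusted permutation p = 0.0469) passed by Pearson's r but not by Spearman's rho (adjusted permutation p = 0.0604 and 0.0544). For Jun r fell to 0.098 within groups. Fosl2 (r = 0.56), Atf3 (r = 0.56) and Batf (r = 0.17) did not pass. In spleens and in nodes the relation was computed for the members only. No share of all genes stands beside these results, so they do not set the members apart from other genes.

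Over the 7 lymph nodes, Fos (r = 0.93, rho = 0.93, exact permutation p = 0.00952 and 0.00675, adjusted 0.0373 and 0.027), Atf3, Jund, Fosb and Junb (r between 0.85 and 0.90, adjusted exact permutation p = 0.0373 for each) passed by Pearson's r, while Jun (r = 0.44), Fosl2 (0.43) and Batf (-0.18) did not. By Spearman's rho Jund passed (adjusted exact permutation p = 0.0394), and Junb (0.0544), Atf3 (0.0607) and Fosb (0.118) did not. Without the 2 nodes farthest from the median, r was 0.85 for Fos and between 0.64 and 0.67 for the other 4. These were 16 relations, adjusted together. B and T cells of 1 library share the animal, the suspension, the run and the free RNA, and their parts in the relation were not tested.

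**Figure D4:**
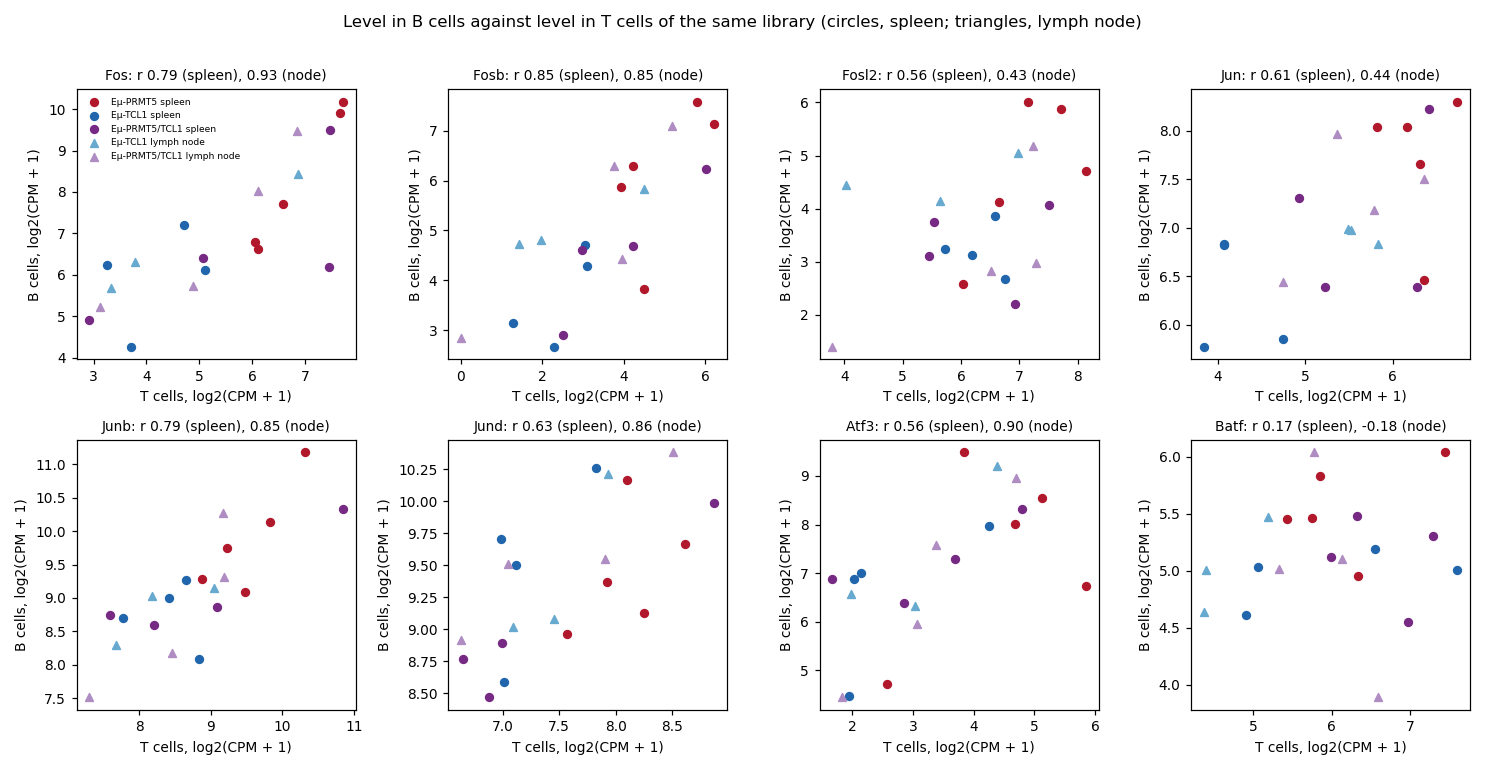
Level of each AP-1 gene in B cells (y axis) against that in T cells (x axis) of the same library, both as log2(CPM + 1), with circles for spleens, triangles for lymph nodes and colors for genotypes. Points of Fos, Fosb and Junb rise together from left to right (r between 0.79 and 0.93 in either tissue), and those of Batf do not (0.17 and −0.18).

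Members also moved with each other within a class. As a description, over B cells of the 13 spleens the correlation of a member with the mean log2 level of the other 7 was 0.91 for Fosb, 0.87 for Jun, 0.86 for Fos, 0.83 for Junb, 0.65 for Fosl2, 0.59 for Atf3, 0.19 for Jund and 0.17 for Batf. Over T cells it was 0.95 for Fosb, 0.94 for Junb, 0.92 for Fos, 0.80 for Jun, 0.78 for Fosl2, 0.70 for Jund, 0.64 for Atf3 and 0.17 for Batf. Batf thus had the lowest value in both classes of spleens. Over the 7 lymph nodes Jund was at 0.83 and Atf3 at 0.95 in B cells, and Batf was again the lowest, at 0.52 in B and −0.34 in T cells, where the other 7 lay between 0.79 and 0.95. Among 5648 other genes with a mean of at least 20 CPM, those most like the mean of the members over B cells of the 20 libraries were Dnajb9 (r = 0.95), a chaperone of the endoplasmic reticulum, Ppp1r15a (0.91), which reverses the translation block of the stress response, Coq10b (0.91), a mitochondrial coenzyme Q binding protein, Dusp1 (0.91), a phosphatase that switches MAP kinases off, and Sertad1 (0.91), a cell cycle regulator. Over T cells of the same libraries their r with the members was 0.88, 0.84, 0.90, 0.93 and 0.85. Libraries share depth and handling in these values, and both tissues were pooled.

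Lymph node and spleen of the same mouse were compared in the 7 mice that gave both. No member passed by edgeR or DESeq2 in B cells, in T cells or in the B minus T test. In B cells the node was higher for Fosb in 6 of 7 mice (log2 fold change 1.04 ± 0.65, edgeR adjusted p = 0.599), for Fosl2, Jun and Jund in 5, for Fos, Junb and Batf in 4 and for Atf3 in 3. In T cells Jund was higher in the node in 6 of 7 mice (0.50 ± 0.39, edgeR adjusted p = 0.646), Jun in 5 (0.89 ± 0.37, adjusted p = 0.374) and Batf in 1 (−0.80 ± 0.29, adjusted p = 0.317). The B minus T difference was 0.83 (95% interval 0.083 to 1.57, adjusted p = 0.354) for Batf and 0.78 (95% interval −0.055 to 1.61, adjusted p = 0.445) for Fosb. Calls over all genes were 2 of 11249 in B cells (0.0178%), 0 of 10083 in T cells (0%, with 1257 past 0.05 before adjustment and 172 called by DESeq2) and 12 of 11600 in the B minus T test (0.103%). A mouse high in 1 tissue was not always high in the other: the mouse that gave Eµ-PRMT5/TCL1 spleen 4 and lymph node 1 had Fos at 726 CPM in B cells of the spleen and 36.5 CPM in B cells of the node.

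**Figure D5:**
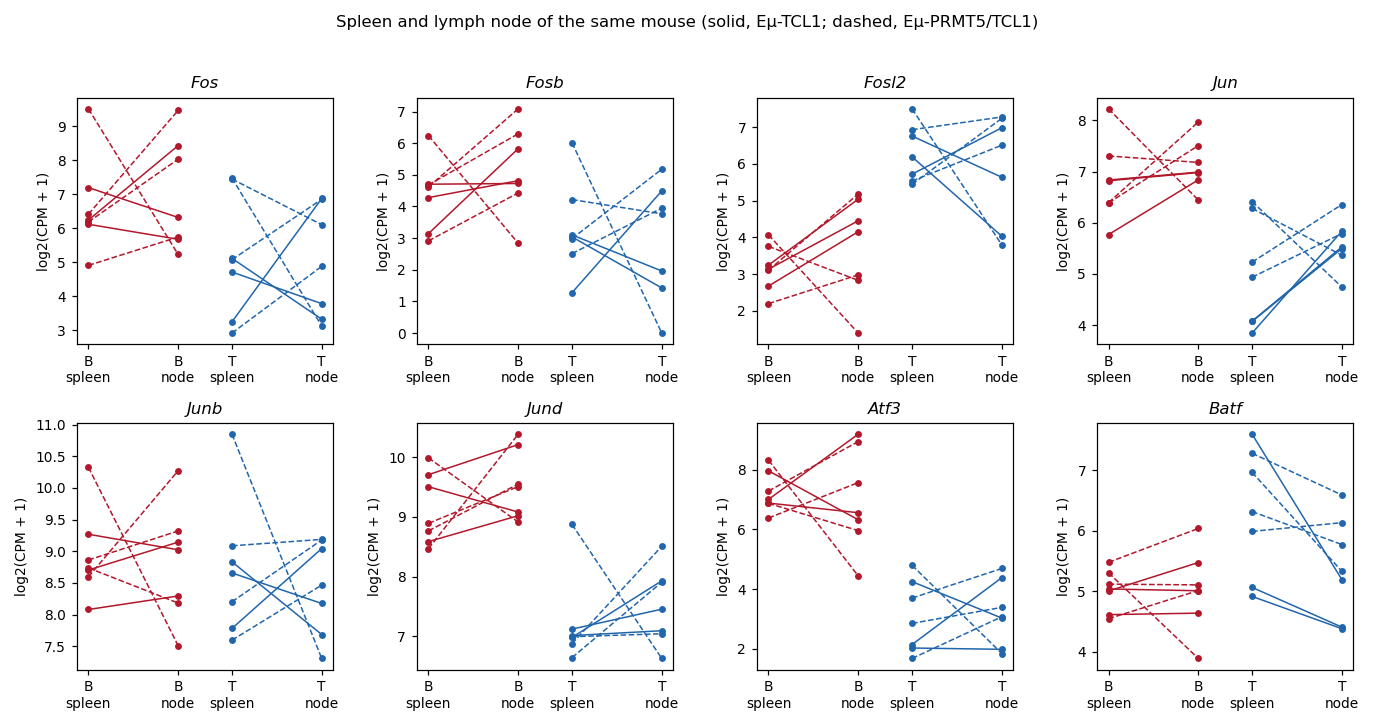
Level of each AP-1 gene, as log2(CPM + 1), in spleen and lymph node of the 7 mice with both tissues, for B cells in red and T cells in blue, with a line per mouse (solid, Eµ-TCL1; dashed, Eµ-PRMT5/TCL1). Lines cross for most genes, and for Batf in T cells 6 of 7 fall from spleen to node.

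Other genes of the pathway were read from 5 lists between Eµ-PRMT5 and Eµ-TCL1 spleens. Of 20 other immediate early genes known to rise on dissociation (such as Egr1, Ier2, Nr4a1), none was called by edgeR in B or T cells, 19 of 20 had a log2 fold change above 0 in B cells and 17 of 19 tested in T cells, and the medians were 1.00 and 0.67. The 2 with the highest level were Nfkbia, the inhibitor of NF-κB (0.66 ± 0.34 in B cells, 0.46 ± 0.27 in T cells), and Klf2 in B cells (0.76 ± 0.45) or Btg1 in T cells (0.24 ± 0.30), both factors of resting lymphocytes. Of 11 heat shock genes, Hspa1b was called in T cells (log2 fold change 3.54 ± 0.52, adjusted p = 0.0311) and none in B cells, where Hspa1b was at 3.51 ± 1.06 (adjusted p = 0.135), with medians of 1.07 in B and 1.06 in T cells. Hspa1b is nearly identical to Hspa1a, so reads may be split between them. Besides Jun, it was the only gene higher in T cells by this test. Summed heat shock levels in T cells were 7407 to 9460 CPM in the 5 Eµ-PRMT5 and 5038 to 6692 CPM in the 4 Eµ-TCL1 spleens, and their part in the Jun result was not tested.

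Of 11 feedback inhibitors of MAP kinases (Dusp, Spry and Spred families and Gadd45b), none was called, 7 of 9 tested were above 0 in B cells and 10 of 11 in T cells, with medians of 0.86 and 0.72. Dusp2, a nuclear MAP kinase phosphatase, was at 1.25 ± 0.56 in B and 0.63 ± 0.43 in T cells. Of 21 kinases and factors upstream, none was called, 10 were above 0 in B cells and 10 in T cells, and the medians were −0.057 and −0.036. Map2k2, a kinase that activates ERK, was at −0.18 ± 0.24 in B and −0.096 ± 0.20 in T cells. Of 14 other bZIP genes, 11 were tested in each class, none was called, and the medians were 0.54 and 0.42, with Nfe2l2, the oxidative stress factor, at −0.12 ± 0.26 in B and 0.48 ± 0.40 in T cells. In the B minus T test no gene of the 5 lists was called, with medians of 0.43 (immediate early), −0.098 (heat shock), −0.25 (feedback), −0.14 (upstream) and −0.023 (bZIP), against 0.017 over all genes.

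Between B and T cells of spleens, where 58.3% of all genes were called, the lists split as follows. Of the immediate early list 10 were higher and 4 lower in B cells, of heat shock genes 7 and 1, of upstream kinases and factors 5 and 4, of other bZIP genes 4 and 2 of 10 tested, and of feedback inhibitors 0 and 5 of 9 tested. Examples with the smallest p were Zfp36 (log2 fold change 1.53), which breaks down cytokine mRNA, Ier3 (−4.25), Tnfaip3 (−2.86), which limits NF-κB, Maf (−5.84), a bZIP factor of T helper cells, Map3k8 (1.56), a MAP kinase kinase kinase, and Dusp1 (−1.12). Fosl2 and Batf were thus not the only genes of these kinds with a higher level in T cells.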

How the data were processed

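Single cells were captured by the authors with 10x Genomics 3′ chemistry, and all barcodes were deposited with their UMI counts for each gene, as raw counts with no normalization. The labels name Cell Ranger 2.0.1 and GRCm38, while the matrix headers name Cell Ranger 3.1.0, and the release of the gene annotation is not given in the sources used here. Groups, tissues and replicate numbers were taken from the sample descriptions and mice from the titles. The members and the gene lists were chosen with earlier results of these data known, and every test here was run with those results in view.

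Barcodes were kept as cells when their UMIs reached 10% of the 99th percentile among the library's 3000 largest barcodes, with no fewer than 200 genes and mitochondrial UMIs of 10% or less. Doublets were scored with Scrublet in scanpy 1.11.5. Its automatic threshold marked at most 10 barcodes in 17 of 20 libraries, so the highest scores were removed up to an expected 0.8% per 1000 cells, 3542 of 87773 barcodes in all. Libraries shared at most 1.308% of the smaller library's barcodes. Kept cells numbered 688 to 7631 per library, with median depths of 3553 to 14285 UMIs and library totals of 9348094 to 72440894 UMIs. A cell was given a class when its own markers held at least 5 (B), 3 (T), 5 (myeloid) or 40 (plasma) UMIs and those of other classes few. 1 gene of the B cell list is not reported here.

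Counts were summed per library and class, and classes with under 20 cells in a library were left out. The quasi-likelihood test of edgeR 4.0.16 (R 4.3.3, TMM, genes filtered by expression) was fitted over all genes and adjusted by Benjamini-Hochberg, and intervals are 95% intervals on the test's degrees of freedom. Spleen genotypes shared a single fit, classes and tissues were paired by library and mouse, and the B minus T tests held both classes. Scripts were tested on simulated data. Alternatives were DESeq2 1.42.0, no filter, each library left out, a replicate block, sex as a covariate, at least 500 UMIs per cell, a stricter class gate, no immunoglobulin genes, cells thinned to 1000 UMIs and, for ratios, a pseudocount of 10 CPM in place of 1 or at least 100 cells. The share of free RNA in T cells and the fits on library totals without TMM were added after the data had been seen. Libraries come from separate mice within a group.

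Named were the 8 members and, from each list, at most the 4 genes with the smallest p among those called, or, where none was called, the 2 with the highest mean CPM. The 5 genes most like the members had at least 20 CPM on average in B cells. Promoter sequences are from RefSeq on GRCm38.p6, and gene positions from GENCODE on GRCm38.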

Additional observations from a re-analysis of the deposited data

Results flagged for a closer look

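Within each group of 4 or 5 libraries, the highest or lowest level of a member was compared with the rest by Dixon's ratio, in B and in T cells. Of 64 groups, 7 held a library past the 95% critical value of that ratio, all at the high end. Chance gives about 1 in 20 for normal and independent values, which levels of these members, skewed to the right and correlated with each other, are not, so no chance rate is set beside the 7. Other genes were not put through the ratio, so whether 7 of 64 is many was not tested. In B cells of Eµ-PRMT5/TCL1 spleen 4, Fos was at 725.9 CPM against 29.1 to 84.1 in the other 3 spleens, and Junb at 1283 CPM against 386 to 464. In T cells of the same spleen, Jund was at 468 CPM against 99.01 to 126, so 3 of the 7 came from 1 library. Its lymph node, Eµ-PRMT5/TCL1 lymph node 1, was the lowest node for Fos in both classes.

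The other 4 came from 4 libraries. Fosl2 in B cells of Eµ-PRMT5/TCL1 lymph node 3 was at 35.3 CPM against 1.62 to 6.87, and Batf in T cells of Eµ-PRMT5 spleen 4 was at 172.5 CPM against 42.2 to 79.5, in the library with 49 T cells. Jund in T cells of Eµ-TCL1 spleen 3 was at 225.9 CPM against 125 to 138, and Atf3 in T cells of Eµ-TCL1 spleen 2 at 18.04 CPM against 2.85 to 3.41.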

How the results depend on the processing

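The count of members called stayed within 1.5 times in 434 of 453 combinations of comparison and alternative, rose in 7 and fell in 12. Most comparisons had 0 members called to begin with, and 0 staying 0 is among the 434. The 453 also include the ratio tests, which cannot pass for a single member, so the count is no measure of stability. 3 called differences changed sign, all between plasma and B cells on library totals without TMM, an alternative added after the data had been seen: Fos at −0.048, Fosb at −0.39 and Jund at −0.37. There Fosl2 passed between plasma and B cells (−1.16, adjusted p = 0.000617) and Fosb between myeloid and T cells (−0.93, adjusted p = 0.0235). By DESeq2 instead of edgeR, the comparison of Eµ-PRMT5 with Eµ-TCL1 spleens had 4 members called in B cells (0 by edgeR), 3 in T cells (1 by edgeR), 1 in myeloid cells and 1 in the B minus T test (0 by edgeR in both), and the comparison of Eµ-PRMT5/TCL1 with Eµ-TCL1 mice had 1 in T cells of spleen and 1 in T cells of lymph node (0 by edgeR in both). For Eµ-PRMT5 against Eµ-TCL1 in T cells the count was 0 with at least 500 UMIs per cell, 0 with the replicate block, 0 with sex as a covariate and 0 without TMM. Leaving out 1 library gave 0 to 1 there, with 0 without Eµ-PRMT5 spleen 1, 2, 3 or 4, Eµ-PRMT5/TCL1 spleen 3 or Eµ-TCL1 spleen 1, 2 or 4, and 0 to 3 in B cells, with 3 without Eµ-PRMT5 spleen 4. Why these counts moved was not tested.

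The replicate block did not change another count of members. Replicate numbers of the labels do not mark shared mice between genotypes: of 12 same-numbered pairs of spleen libraries, 5 had a correlation of deviations over 0.1 in B cells (median 0.056) and 4 in T cells (median 0.0023). Of 3 such pairs of lymph node libraries, 1 was over 0.1 in B cells (median −0.010) and 2 in T cells (median 0.61, against −0.16 over 9 pairs with different numbers). With the replicate block Jun in T cells was at 2.18 (adjusted p = 0.118). Over all genes the block moved the B minus T count between Eµ-PRMT5 and Eµ-TCL1 spleens from 1 to 11, and leaving out the mouse block in the tissue comparison moved the B minus T count from 12 to 0.

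Counts over all genes differed by over 1.5 times between edgeR and DESeq2 wherever genotypes or tissues were compared, except in myeloid cells of Eµ-PRMT5/TCL1 spleens: 2 and 706 (B), 3 and 33 (T) and 1 and 87 (B minus T) for Eµ-PRMT5 against Eµ-TCL1, 1 and 23, 0 and 2 and 2 and 15 with both transgenes against Eµ-TCL1 spleens, 0 and 135, 0 and 9 and 0 and 11 against Eµ-PRMT5 spleens, 0 and 62, 0 and 138 and 0 and 51 in lymph nodes, and 2 and 279, 0 and 172 and 12 and 120 for node against spleen. Thinned cells gave 3933 against 6081 calls between B and T cells of spleens, 3814 against 7119 for myeloid against T cells, 1841 against 4654 for plasma against B cells and 3217 against 5412 in lymph nodes, and without Eµ-PRMT5 spleen 4 the B cell count was 781. Without TMM, 7743 genes were called between plasma and B cells, 2709 higher and 4634 lower between myeloid and T cells (3348 and 3771 with it), and 8 in B cells and 46 in the B minus T test for node against spleen, while the medians of all genes between genotypes or tissues lay between −0.19 and 0.17 (−0.034 and 0.022 with it). Without Eµ-TCL1 spleen 1 the B minus T count of both transgenes against Eµ-TCL1 was 13 in spleen.

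Junb between B and T cells of spleens passed by DESeq2, without the filter, and without Eµ-PRMT5 spleen 4, Eµ-PRMT5/TCL1 spleen 1 or 4 or Eµ-TCL1 spleen 1 (edgeR adjusted p between 0.0191 and 0.048). Fosb between myeloid and T cells passed by DESeq2, with at least 500 UMIs per cell, and with any of Eµ-TCL1 spleen 4 and Eµ-PRMT5 spleens 2, 4 and 5 left out (edgeR adjusted p between 0.0169 and 0.0463). Among plasma cells Fosb missed the threshold by DESeq2, without the filter, and without Eµ-PRMT5/TCL1 spleen 1 or 4 (edgeR adjusted p = 0.0563 and 0.0904), and Atf3 passed without Eµ-PRMT5 spleen 5 (log2 fold change 0.96, adjusted p = 0.0158). The ratio tests cannot pass for a single member after adjustment, so their alternatives (a pseudocount of 10 CPM, at least 100 cells, 1 library left out) say nothing about stability. Depth limits the T cell values of Eµ-PRMT5 spleen 4 and Eµ-PRMT5/TCL1 lymph node 1 most, where 3 counts amount to 4.97 and 7.74 CPM.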
